A study of Mus musculus with 16 samples.

Results

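The lysosomal cathepsins described here are Ctsk, Ctss, Ctsb, Ctsl, Ctsd, Ctsz, Ctsh and Ctsc, 8 of the 19938 genes measured in mouse lungs given crystalline silica. They were chosen by name as proteases of the lysosome, with earlier results of these data known. Each is read by 1 probe set that carries no other gene symbol. Whole-lung RNA was hybridised to 16 Affymetrix whole-transcript arrays, from C57BL/6 mice of 10 to 12 weeks, which were instilled through the trachea with crystalline silica (CS) or, as controls, buffered saline (PBS). At day 60 the groups were BLT1-/-KRasLA1 CS, BLT1-/-KRasLA1 PBS, BLT1+/+KRasLA1 CS and BLT1+/+KRasLA1 PBS, and at day 2 they were BLT1-/- CS, BLT1-/- PBS, BLT1+/+ CS and BLT1+/+ PBS. BLT1 is the high-affinity receptor of leukotriene B4, a lipid that attracts leukocytes, and KRasLA1 is a latent oncogenic allele that recombines spontaneously and gives rise to lung tumours. All day 60 mice carried KRasLA1 and no day 2 mouse did, so that day and allele cannot be told apart. Each CS group held 3 lungs and each PBS group was 1 array of RNA pooled from 3 mice.

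Cathepsins are made as inactive proenzymes, carried to the lysosome mostly by mannose 6-phosphate receptors, and activated there by the low pH that the vacuolar proton pump maintains. Most of the family are cysteine proteases, whereas Ctsd encodes an aspartic protease. In the lung they are known mainly from macrophages, which degrade engulfed material with them and can release them onto the matrix. Crystalline silica taken up by macrophages is known to damage the lysosome, and cathepsin B in particular has been studied for its release into the cytosol.

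Values are log2 expression levels, so that a difference of 1 is a doubling, and levels are compared only within a probe set. The arrays had medians between 8.25 and 8.34. The surfactant gene Sftpc lay between 14.25 and 14.47 on all arrays and the macrophage gene Cd68 between 10.83 and 12.57. Ltb4r1, the gene of BLT1, lay between 7.21 and 7.63. Its BLT1 difference after silica was not called (-0.075 at day 60, adjusted p = 0.967, and -0.19 at day 2, adjusted p = 0.522). At day 60 the CS lungs of the genotypes overlapped. At day 2 the BLT1-/- CS lungs, at 7.35 to 7.43, lay below the BLT1+/+ CS lungs, at 7.56 to 7.63, and 6.13% of all genes were lower without overlap there. It is not known here whether its probe set reads the deleted part, so its level is no check of genotype. The Y-linked gene Eif2s3y set 3 arrays apart, at 10.09 in BLT1+/+KRasLA1 CS replicate 2, 9.04 in the BLT1-/-KRasLA1 PBS pool and 9.68 in the BLT1+/+KRasLA1 PBS pool, against 4.27 to 4.74 on the other 13 arrays. The mean responses are given without each of these arrays, and the BLT1 differences and interactions of day 60 without the CS lung. Leaving out 1 day 60 pool leaves the other, which also stands apart, as the only control. The value is then the response of that pool's genotype alone. Leaving out the CS lung leaves no CS lung of that day with high Eif2s3y. The X-linked gene Xist lay at 6.61 in BLT1+/+KRasLA1 CS replicate 2. It lay at 12.16 in the BLT1-/-KRasLA1 PBS pool, 12.32 in the BLT1+/+KRasLA1 PBS pool and 12.75 to 13.06 on the other 13 arrays. No sex is given in the labels. These genes set both day 60 pools apart from most CS lungs of that day, and their part in the day 60 responses was not tested. The labels call the CS arrays of a group biological replicates and give no animal numbers, so the p-values reflect how these arrays spread.

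Ctsk and Ctss are neighbours on chromosome 3, with no protein-coding gene starting between them, and Ctsk rose on both days where Ctss passed at day 60 alone. The promoter of each is shown beside that of Ctsd, which rose with Ctss at day 60, as the 250 bases before the annotated start in RefSeq (GRCm38.p6, 5′ to 3′ on the gene's strand). Capitals mark 2 motifs searched on both strands. The first is GAGGAA, called the Ets core here, which the myeloid factor PU.1 can bind and which reads TTCCTC on the other strand. The second is the E-box CACGTG, which lies in the element bound by the lysosomal regulator TFEB. The shorter GGAA, without the leading GA, was neither searched nor marked.
Ctsk, chr3:95498960-95499209, plus strand: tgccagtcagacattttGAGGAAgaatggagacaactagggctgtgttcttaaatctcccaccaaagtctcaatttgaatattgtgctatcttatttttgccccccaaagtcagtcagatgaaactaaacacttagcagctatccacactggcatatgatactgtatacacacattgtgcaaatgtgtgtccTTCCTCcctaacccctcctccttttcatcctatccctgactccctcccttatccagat
Ctss, chr3:95526536-95526785, plus strand: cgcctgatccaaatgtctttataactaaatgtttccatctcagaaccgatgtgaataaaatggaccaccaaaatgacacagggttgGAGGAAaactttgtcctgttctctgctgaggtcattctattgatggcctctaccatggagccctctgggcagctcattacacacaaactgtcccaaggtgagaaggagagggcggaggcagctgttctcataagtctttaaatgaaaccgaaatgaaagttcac
Ctsd, chr7:142387828-142388077, minus strand: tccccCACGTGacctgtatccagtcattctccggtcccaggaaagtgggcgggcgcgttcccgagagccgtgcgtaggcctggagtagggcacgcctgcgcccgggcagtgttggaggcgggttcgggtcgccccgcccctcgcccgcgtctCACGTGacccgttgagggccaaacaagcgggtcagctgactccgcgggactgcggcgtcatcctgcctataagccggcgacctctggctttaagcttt
The Ctsk window held the Ets core at 233 to 228 and at 58 to 53 bases before the start, and the Ctss window held it once, at 164 to 159. The Ctsd window held the E-box at 245 to 240 and at 98 to 93 bases before the start. Of the other windows, that of Ctsl held 1 E-box, that of Ctsc held the Ets core at 2 places and that of Ctsz held neither. The table held 6 of the 8 cathepsins, without Ctsb and Ctsh. The Ets core occurs in 23.3% and the E-box in 6.02% of the 32851 promoter windows of this length. The AP-1 motif TGANTCA occurs in 6.75% of them and in none of the 6 cathepsin windows. The motifs were chosen with the sequences in view, they do not overlap one another here, and a match is a description of the letters only.

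Silica lungs carried more RNA of most of these cathepsins at day 60 and of some at day 2. In the mean response over both BLT1 genotypes (CS lungs minus PBS pools), 6 of 8 cathepsins rose at day 60 and none fell, against 3.35% of all genes that rose and 0.677% that fell, at an adjusted p under 0.05 in limma. At day 2, 3 of 8 rose and none fell, against 8.03% of all genes that rose and 4.37% that fell. Of 16 other measured genes of the cathepsin and related families, 1 rose at day 60 and 3 fell at day 2. The median response of the cathepsins was 0.54 at day 60 and 0.22 at day 2, against medians of -0.029 and -0.020 over all genes on those days. Ctsk, Ctsz and Ctsc passed on both days, Ctss, Ctsb and Ctsd at day 60 alone, and Ctsl and Ctsh on neither day. All 8 mean responses were above 0 on both days, and the difference between the days' responses, described further on, passed for none of them. The CS lungs of both genotypes all lay above both pools of their day for 6 of 8 cathepsins at day 60 (9.66% of all genes) and for Ctsk, Ctsb, Ctsz and Ctsc at day 2 (12.1% of all genes). In whole-lung RNA more cells of a type and more RNA per cell cannot be told apart. The counts rest on 2 pools per day. A pool was left out in an additive fit of genotype and treatment to the arrays of the day. With both pools, that fit called 6 of 8 at day 60 and 4 of 8 at day 2. With 1 pool left out, its genotype has no control, and the value is the response of the other genotype, not a mean. Without the BLT1-/-KRasLA1 pool, Ctsk and Ctsc passed at day 60, while Ctss (0.94), Ctsb (0.55), Ctsd (0.61) and Ctsz (0.85) did not. Without the BLT1+/+KRasLA1 pool Ctsk alone passed, with Ctss at 0.60, Ctsb at 0.53, Ctsd at 0.47, Ctsz at 0.69 and Ctsc at 0.19. At day 2 Ctsk alone passed without the BLT1-/- or the BLT1+/+ pool. Without BLT1+/+KRasLA1 CS replicate 2, 6 of 8 passed at day 60. That leaves CS lungs at 4.45 to 4.74 in Eif2s3y against pools at 9.04 and 9.68. Silica and the Eif2s3y split then coincide, so this fit cannot tell them apart.

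**Figure D1:**
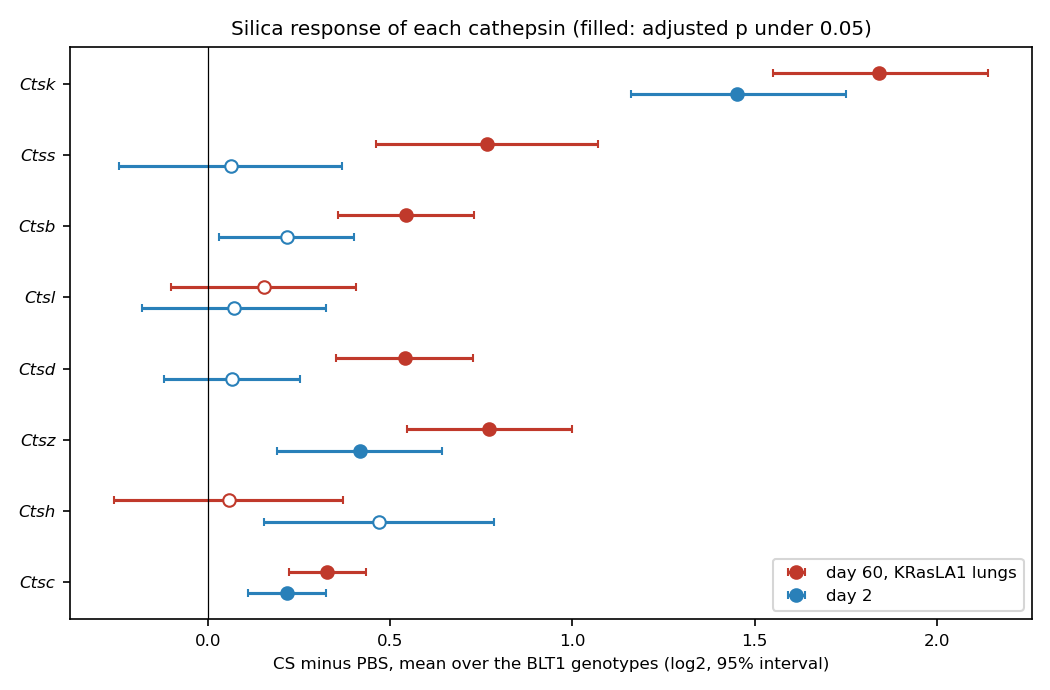
Mean silica response of each cathepsin over both BLT1 genotypes (x axis, log2 of CS minus PBS, with the 95% interval of the limma fit) at day 60 in KRasLA1 lungs (red) and at day 2 (blue); filled points have an adjusted p under 0.05. Ctsk stands furthest to the right on both days, at 1.84 and 1.45, and the day 60 points of Ctss, Ctsb, Ctsd, Ctsz and Ctsc are filled between 0.33 and 0.77.

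Ctsk encodes cathepsin K, a strong collagenase and elastase best known from osteoclasts, which resorb bone with it. At day 60 it stood at 11.82, 11.64 and 11.76 in the BLT1-/-KRasLA1 CS lungs, against 9.67 in their PBS pool, and at 11.80, 11.82 and 11.36 in the BLT1+/+KRasLA1 CS lungs, against 10.04 in theirs. The day 2 levels were 10.51, 10.29 and 10.85 in the BLT1-/- CS lungs, against 8.995 in their pool, and 10.12, 10.18 and 10.30 in the BLT1+/+ CS lungs, against 8.85 in theirs. Every CS lung lay above both pools of its day, and the lowest day 2 CS lung lay above even the higher day 60 pool. Ctsk rose 3.59-fold at day 60 (1.84 ± 0.14 SE, adjusted p = 8.75e-06, higher in 6 of 6 lungs) and 2.73-fold at day 2 (1.45 ± 0.14, adjusted p = 8.9e-05, 6 of 6). Its range over the 16 arrays, 2.97 log2 units, compares with 0.63 to 1.5 for the other 7. The group order was BLT1-/-KRasLA1 CS (11.74 ± 0.088, SD, n = 3), BLT1+/+KRasLA1 CS (11.66 ± 0.26), BLT1-/- CS (10.55 ± 0.28), BLT1+/+ CS (10.20 ± 0.093), and then the pools. The first 2 of these groups were 0.081 apart, less than the pooled SD of 0.20 between CS lungs, and so were BLT1+/+ CS and the BLT1+/+KRasLA1 PBS pool, at 0.16, and the day 2 pools, at 0.14.

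Ctsk also differed between the pools themselves. The day 60 KRasLA1 pools lay above the day 2 pools by 0.93 ± 0.17 (1.90-fold, adjusted p = 0.0337), where 0.166% of all genes were called higher. The other 7 cathepsins differed between these pools by -0.018 to 0.38 and none passed, with Ctsh at 0.38 (adjusted p = 0.469) and Ctss at 0.31. The Ctsk difference compares 2 pools with 2 and was lost in limma without a variance trend (adjusted p = 0.0602). With any 1 of the 4 pools left out it was 0.74 to 1.11 and did not pass (adjusted p = 0.124 to 0.185). It was lost as well without BLT1-/-KRasLA1 CS replicate 2 (0.0552) or 3 (0.0541), BLT1-/- CS replicate 1 (0.0541) or BLT1+/+ CS replicate 2 (0.0605). These lungs are not part of the difference, which stayed at 0.93, and only its adjusted p moved. The pools also differed in Eif2s3y, at 9.04 and 9.68 at day 60 against 4.33 and 4.27 at day 2. Of 12 neutrophil markers 6 were lower and none higher in the day 60 pools (median -1.72), and of 15 macrophage markers none passed (median 0.015). Of 12 alveolar macrophage markers 1 was higher and none lower (median 0.36). The mean level of that list was 10.88 and 10.72 in the day 60 pools, against 10.38 in each day 2 pool. The part of these in the Ctsk difference was not tested.

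**Figure D2:**
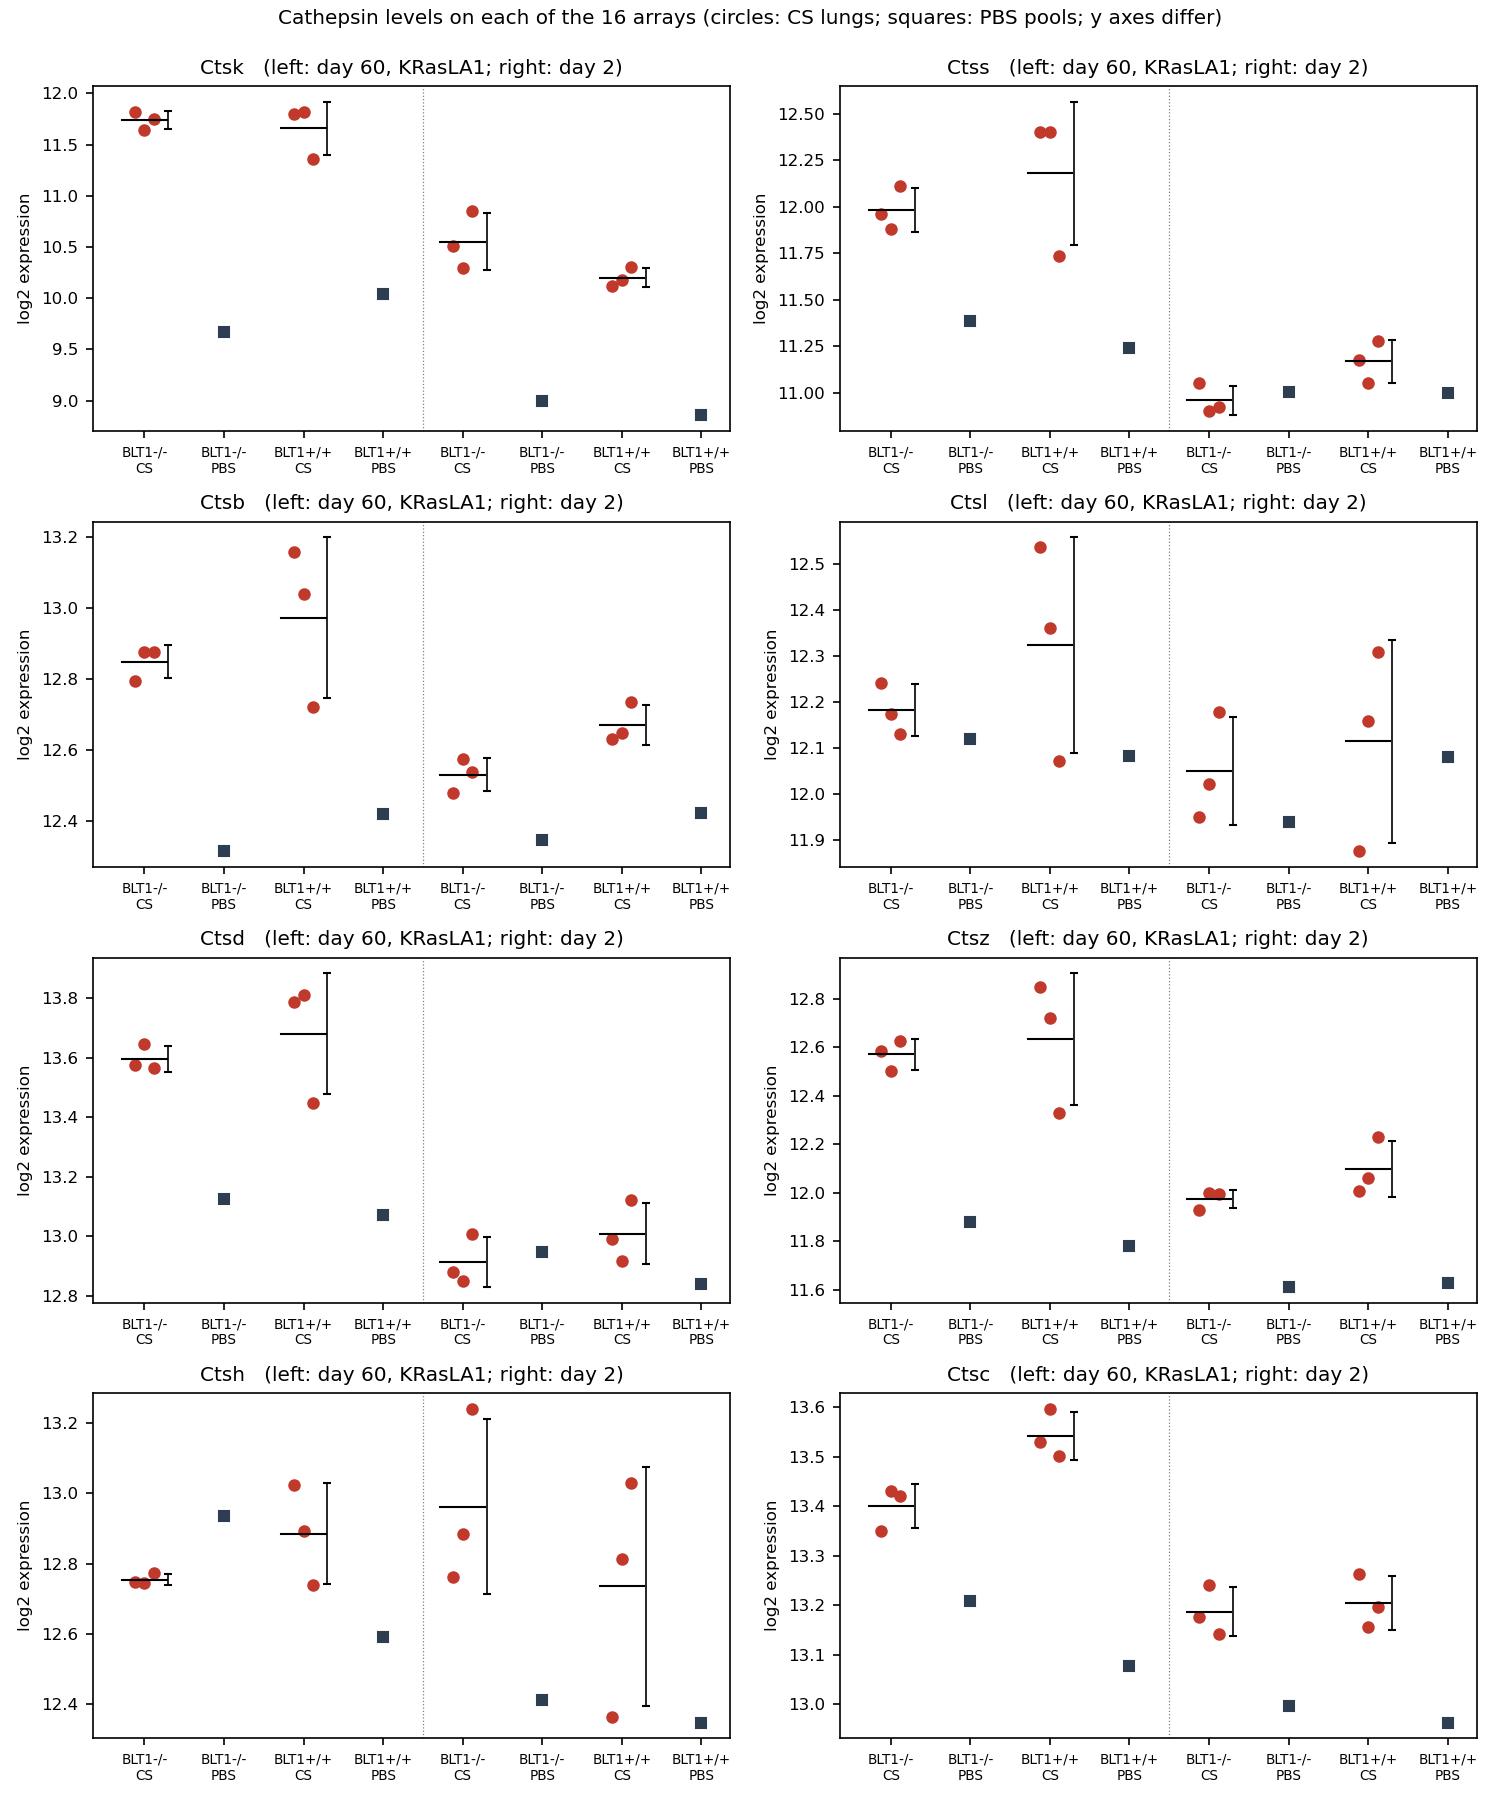
Level of each cathepsin on every array (y axis, log2 expression, with a scale of its own in each panel): circles are single CS lungs, lines and bars their mean and SD (n = 3), and squares are PBS pools of 3 mice. The Ctsk panel shows every CS lung above both pools of its day. In the Ctss and Ctsd panels the day 2 BLT1-/- circles lie around their square and the BLT1+/+ circles lie above theirs.

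Ctss and Ctsl encode cathepsins S and L, which cut the invariant chain from class II molecules, cathepsin S in B cells, macrophages and dendritic cells and cathepsin L in the thymic epithelium of mice. Ctss stood at 11.96, 11.88 and 12.11 in BLT1-/-KRasLA1 CS lungs, against 11.39 in their pool, and at 12.40, 12.40 and 11.73 in BLT1+/+KRasLA1 CS lungs, against 11.24 in theirs. Day 2 levels were 11.05, 10.90 and 10.92 in BLT1-/- CS lungs, against 11.00 in their pool, and 11.18, 11.05 and 11.28 in BLT1+/+ CS lungs, against 11.00 in theirs. All 6 CS lungs of day 60 lay above their pools. Those of day 2 lay on both sides of their pool in BLT1-/- and all above it in BLT1+/+ lungs. Ctss rose 1.70-fold at day 60 (0.77 ± 0.14, adjusted p = 0.00723). Its day 2 response was 0.063 (95% interval -0.24 to 0.37, adjusted p = 0.843). Ctsl had intervals across 0 on both days, with 0.15 at day 60 (-0.10 to 0.41, adjusted p = 0.668) and 0.072 at day 2 (-0.18 to 0.33, adjusted p = 0.777). Its CS lungs lay between 12.07 and 12.54 at day 60, against 12.12 and 12.08 in the pools, and between 11.88 and 12.31 at day 2, against 11.94 and 12.08. The neighbouring groups of Ctsl in order of level were at most 0.14 apart, less than its pooled SD of 0.17.

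Most genes that work beside cathepsin S in class II presentation fell at day 2. Of 10 measured antigen-processing genes, 1 rose and 8 fell at day 2, against 3 that rose and none that fell at day 60. The class II chains H2-Aa (-0.51), H2-Ab1 (-0.64) and H2-Eb1 (-0.71) fell at day 2, and so did H2-Ob, a modifier of peptide loading, by 1.53. Lgmn, the asparagine endopeptidase that also processes cathepsins, rose on both days, and the thiol reductase gene Ifi30 (0.52) and the class II activator gene Ciita (0.53) rose at day 60. Markers of B cells moved in the same comparison, with 7 of 8 lower and none higher at day 2, against 1 higher and none lower at day 60. Dendritic cell markers had 1 higher and 5 lower of 11 at day 2, against 6 higher and 1 lower at day 60. Their part in the result was not tested.

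Ctsb and Ctsd encode the abundant proteases cathepsin B and cathepsin D, which degrade a broad range of proteins in most cells. Ctsb stood at 12.79, 12.87 and 12.87 in BLT1-/-KRasLA1 CS lungs, against 12.31 in their pool, and at 13.16, 13.04 and 12.72 in BLT1+/+KRasLA1 CS lungs, against 12.42 in theirs. In lungs without KRasLA1, at day 2, the levels were 12.48, 12.57 and 12.54 in BLT1-/- CS lungs, against 12.35 in their pool, and 12.63, 12.65 and 12.73 in BLT1+/+ CS lungs, against 12.42 in theirs. Every CS lung lay above both pools of its day. Ctsb rose 1.46-fold at day 60 (0.54 ± 0.086, adjusted p = 0.00281), and its day 2 response of 0.22 did not pass (adjusted p = 0.13, 6 of 6 lungs higher). In order of level the day 60 CS groups came first, the day 2 CS groups next and the pools last, and the pools were at most 0.072 from one another in that order, less than the pooled SD of 0.12. Ctsb lies on chromosome 14, as does Ltb4r1, with 205 annotated genes starting between them. Its BLT1-/- groups lay below the matching BLT1+/+ groups throughout. For CS lungs the means were 12.85 against 12.97 at day 60 and 12.53 against 12.67 at day 2. The pools stood at 12.31 against 12.42 and 12.35 against 12.42. The CS differences were not called, and the part of the shared chromosome in them was not tested.

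Ctsd stood at 13.58, 13.64 and 13.56 in BLT1-/-KRasLA1 CS lungs, against 13.13 in their pool, and at 13.79, 13.81 and 13.45 in BLT1+/+KRasLA1 CS lungs, against 13.07 in theirs. On day 2 the values were 12.88, 12.85 and 13.01 in BLT1-/- CS lungs, against 12.95 in their pool, and 12.99, 12.92 and 13.12 in BLT1+/+ CS lungs, against 12.84 in theirs. Day 60 CS lungs were all above the pools. The day 2 CS lungs lay on both sides of their own pool in BLT1-/- and all above it in BLT1+/+ lungs. Ctsd rose 1.45-fold at day 60 (0.54 ± 0.087, adjusted p = 0.00294), with a day 2 response of 0.067 (interval -0.12 to 0.25, adjusted p = 0.711). Below the day 60 CS groups, the other 6 groups of Ctsd were each at most 0.073 from the next, less than its pooled SD of 0.12, and those of Ctss at most 0.16, less than its pooled SD of 0.21.

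The remaining 3 members are exopeptidases. Ctsz encodes cathepsin Z, a carboxypeptidase that is found mostly in immune cells. It stood at 12.58, 12.50 and 12.62 in BLT1-/-KRasLA1 CS lungs, against 11.88 in their pool, and at 12.85, 12.72 and 12.33 in BLT1+/+KRasLA1 CS lungs, against 11.78 in theirs. The day 2 levels were 11.93, 12.00 and 11.99 in BLT1-/- CS lungs, against 11.61 in their pool, and 12.01, 12.06 and 12.23 in BLT1+/+ CS lungs, against 11.63 in theirs. CS lungs and pools did not overlap on either day. The day 60 CS groups stood 0.47 above the next group, while they differed from each other by 0.063, less than the pooled SD of 0.15. Ctsz rose 1.71-fold at day 60 (0.77 ± 0.10, adjusted p = 0.00111) and 1.33-fold at day 2 (0.42 ± 0.10, adjusted p = 0.0201).

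Ctsc encodes cathepsin C, or dipeptidyl peptidase 1, which activates the serine proteases of neutrophil, mast cell and cytotoxic granules. It stood at 13.35, 13.43 and 13.42 in BLT1-/-KRasLA1 CS lungs, against 13.21 in their pool, and at 13.53, 13.60 and 13.50 in BLT1+/+KRasLA1 CS lungs, against 13.08 in theirs. Day 2 levels were 13.18, 13.24 and 13.14 in BLT1-/- CS lungs, against 12.996 in their pool, and 13.26, 13.16 and 13.20 in BLT1+/+ CS lungs, against 12.96 in theirs. The lungs of a group lay close together, with a pooled SD of 0.049, the lowest of the 8 cathepsins. The BLT1-/-KRasLA1 CS mean stood 0.19 above the next group, and the BLT1-/-KRasLA1 PBS pool and both day 2 CS groups lay within 0.018 of their neighbours there. The rises were small, 1.26-fold at day 60 (0.33 ± 0.049, adjusted p = 0.00191) and 1.16-fold at day 2 (0.22 ± 0.049, adjusted p = 0.0119). At day 60 the response was 0.19 in BLT1-/-KRasLA1 lungs (adjusted p = 0.322) and 0.46 in BLT1+/+KRasLA1 lungs (adjusted p = 0.0096). The additive fit without the BLT1+/+KRasLA1 pool only repeats the value of BLT1-/-KRasLA1 lungs, 0.19. Of 10 granule serine proteases that cathepsin C activates, none passed at day 60 and 1 fell at day 2, the granzyme gene Gzma, by 1.02 log2 units.

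Ctsh encodes cathepsin H, an aminopeptidase that takes part in the processing of surfactant protein B in alveolar type 2 cells. It stood at 12.75, 12.74 and 12.77 in BLT1-/-KRasLA1 CS lungs, against 12.93 in their pool, and at 13.02, 12.89 and 12.74 in BLT1+/+KRasLA1 CS lungs, against 12.59 in theirs. In lungs without KRasLA1, at day 2, the levels were 12.76, 12.89 and 13.24 in BLT1-/- CS lungs, against 12.41 in their pool, and 12.36, 12.81 and 13.03 in BLT1+/+ CS lungs, against 12.35 in theirs. It was the only 1 of the 8 whose highest group mean was at day 2, but neighbouring groups were at most 0.18 apart, less than its pooled SD of 0.22. The day 60 response was 0.057 (interval -0.26 to 0.37, adjusted p = 0.916). The day 2 response was 0.47 ± 0.15 (1.38-fold, 6 of 6 lungs higher) and did not pass (adjusted p = 0.052). The lungs of day 2 deviated together by replicate number, and with that number as a block at day 2 the Ctsh response passed (0.47, adjusted p = 0.00146), as it did in BLT1-/- lungs alone (0.55, adjusted p = 0.00688). The pools carry no number, so the block's error leaves out the spread between numbers. The day 2 response also passed without BLT1-/- CS replicate 1 (0.52, adjusted p = 0.0343) or BLT1+/+ CS replicate 1 (0.56, adjusted p = 0.00448). It passed too with quantile normalisation (0.46, adjusted p = 0.0451) and with dim genes left out (adjusted p = 0.0452). In 12 of 18 alternatives, however, the Ctsh response at day 2 did not pass. Among these was the additive fit to all day 2 arrays (0.47, adjusted p = 0.09). That fit gave 0.39 when only the BLT1+/+ control was kept and 0.55 when only the BLT1-/- control was kept. These are the responses of those genotypes alone. Alveolar type 2 markers had 1 of 13 higher and 4 lower at day 2, against 1 higher and none lower at day 60.

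The responses of 4 cathepsins were larger at day 60 than at day 2 at an unadjusted p under 0.05, where 6.22% of all genes were higher at that p, and none was after adjustment, where 1.7% of all genes were called higher. The difference was 0.70 ± 0.20 for Ctss (interval 0.27 to 1.14, adjusted p = 0.098) and 0.47 for Ctsd (0.21 to 0.74, adjusted p = 0.0678). It was 0.33 for Ctsb (adjusted p = 0.221), 0.36 for Ctsz (0.288) and 0.39 for Ctsk (interval -0.025 to 0.81, adjusted p = 0.395). For Ctsh it ran the other way, at -0.41 (interval -0.86 to 0.032, adjusted p = 0.405). These calls changed with 1 lung: without BLT1+/+KRasLA1 CS replicate 3, the difference passed for Ctss (0.82, adjusted p = 0.00195), Ctsb (0.39, 0.0174), Ctsd (0.53, 0.00601) and Ctsz (0.43, 0.0298). That lung was the lowest of its group for all 8 cathepsins, and its macrophage markers averaged 10.43, against 10.86 and 10.71 in replicates 1 and 2. Its heart muscle markers averaged 10.52, against 9.84 and 10.04 in those replicates. Their part in the result was not tested.

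**Figure D3:**
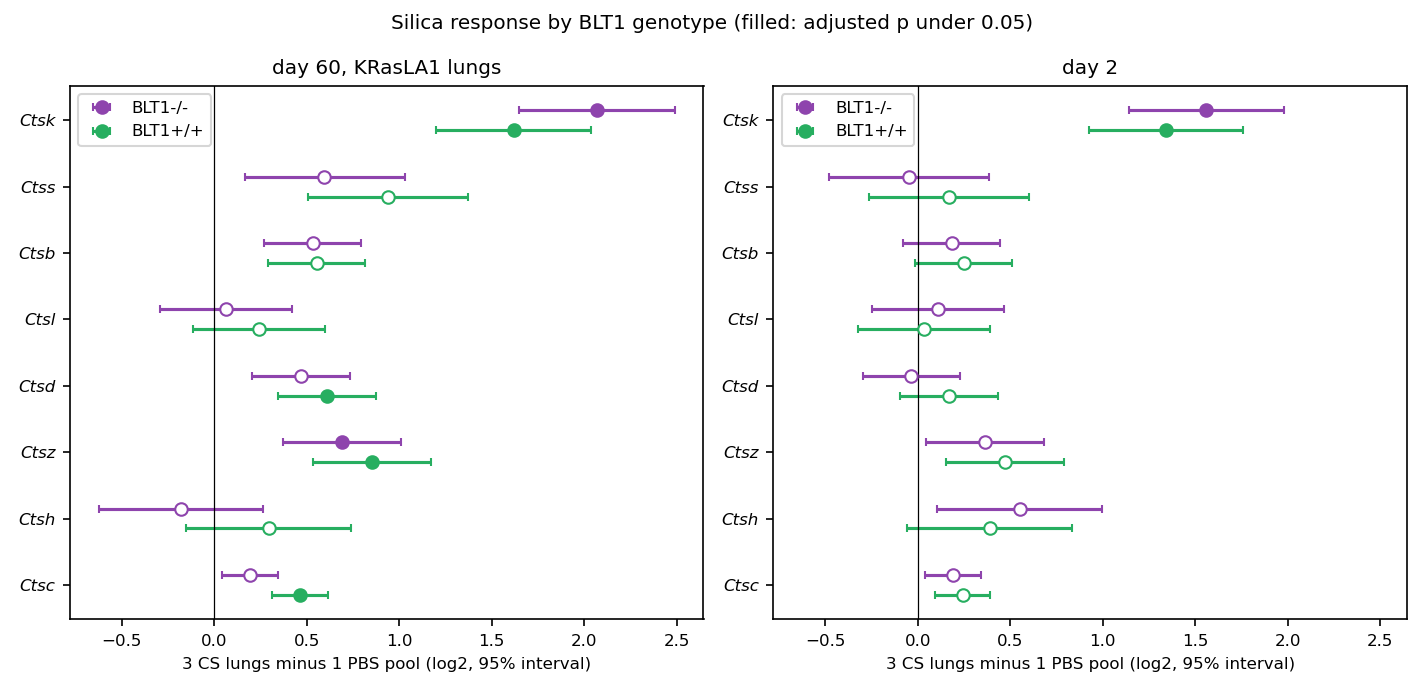
Silica response of each cathepsin in BLT1-/- (purple) and BLT1+/+ (green) lungs (x axis, log2 of 3 CS lungs minus 1 PBS pool, with the 95% interval of the limma fit), at day 60 in KRasLA1 lungs on the left and at day 2 on the right; filled points have an adjusted p under 0.05. Ctsk is filled in all 4 genotypes, and the intervals of the genotypes overlap for every cathepsin.

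The loss of BLT1 gave no called difference in any cathepsin. Within single genotypes, Ctsk rose in all 4, by 4.20-fold in BLT1-/-KRasLA1, 3.07-fold in BLT1+/+KRasLA1, 2.94-fold in BLT1-/- and 2.54-fold in BLT1+/+ lungs (adjusted p = 0.000161, 0.00208, 0.00156 and 0.00719 in that order). In BLT1-/-KRasLA1 lungs 2 of 8 passed, Ctsk and Ctsz (0.69, adjusted p = 0.0407), with Ctsb at 0.53 (adjusted p = 0.055), where 1.1% of all genes rose. In BLT1+/+KRasLA1 lungs 4 of 8 passed, Ctsk, Ctsz (0.85, adjusted p = 0.019), Ctsd (0.61, 0.0388) and Ctsc (0.46, 0.0096), where 0.687% of all genes rose. At day 2 Ctsk was the 1 cathepsin to pass in BLT1-/- lungs (5.19% of all genes rose) and in BLT1+/+ lungs (0.853%). Apart from Ctsk in all 4 genotypes and Ctsc in BLT1+/+KRasLA1 lungs, these calls turned on single lungs. Where the lung left out was of the other genotype, the response was unchanged and only its adjusted p moved. Ctsz in BLT1-/-KRasLA1 lungs was lost without their replicate 1 (adjusted p = 0.0551), 2 (0.0819) or 3 (0.131). In BLT1+/+KRasLA1 lungs Ctsz was lost without their replicate 1 (0.0524) or 2 (0.0604), and Ctsd without these (0.116 and 0.106) or without BLT1-/-KRasLA1 replicate 2 (0.0576) or 3 (0.0546). Ctsb in BLT1-/-KRasLA1 lungs passed without BLT1+/+KRasLA1 replicate 1 (0.0309). Ctsh in BLT1-/- lungs at day 2 passed without BLT1+/+ replicate 1 (0.043). Without BLT1+/+KRasLA1 replicate 3, Ctss (0.0148), Ctsb (0.00364) and Ctsd (0.0157) passed in BLT1-/-KRasLA1 lungs, and Ctss (0.000204) and Ctsb (0.000774) in BLT1+/+KRasLA1 lungs.

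A count that differs between genotypes is no test of the difference, and the interaction of BLT1 and silica was called for none of the cathepsins on either day, nor for any gene in limma (0% called; at day 60, 1.99% of all genes and 1 cathepsin had an unadjusted p under 0.05, and at day 2, 4.49% of all genes and no cathepsin). At day 60 the interaction was 0.45 for Ctsk (interval -0.14 to 1.04), -0.47 for Ctsh (-1.10 to 0.16), -0.34 for Ctss (-0.95 to 0.27) and -0.27 for Ctsc (-0.48 to -0.060), and at day 2 it lay between -0.22 and 0.21 for all 8. Without BLT1+/+KRasLA1 CS replicate 2 the day 60 values were 0.53 for Ctsk, -0.47 for Ctsh, -0.23 for Ctss and -0.24 for Ctsc, with no call.

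Between the CS lungs of the BLT1 genotypes, none of the 8 cathepsins passed at day 60 (0.0401% of all genes did) or at day 2 (0.0201%), and 1 on each day had an unadjusted p under 0.05, as did 4.06% of all genes at day 60 and 8.7% at day 2. At day 60 the difference, BLT1-/-KRasLA1 minus BLT1+/+KRasLA1, ranged from -0.20 to 0.081 with a median of -0.13. Without BLT1+/+KRasLA1 CS replicate 2, which stood apart in Eif2s3y, it ranged from -0.13 to 0.16, with no call. Ctsc was the 1 cathepsin whose lungs did not overlap, at 13.35 to 13.43 in BLT1-/-KRasLA1 and 13.50 to 13.60 in BLT1+/+KRasLA1 lungs (-0.14, interval -0.25 to -0.035, adjusted p = 0.967), where 5.92% of all genes were lower without overlap. At day 2 Ctss (-0.21, interval -0.52 to 0.096), Ctsb (-0.14, -0.33 to 0.046) and Ctsz (-0.12, -0.35 to 0.10) were lower in BLT1-/- lungs without overlap, as were 6.13% of all genes. Ctsk differed by 0.35 at day 2 (interval 0.058 to 0.65, adjusted p = 0.464), and its lungs overlapped. Within the same-numbered pairs of day 2 lungs, Ctsk was higher in BLT1-/- in 3 of 3 (0.39, 0.12 and 0.55), and so was Ctsh, while Ctss, Ctsb, Ctsd and Ctsz were lower in 3 of 3. Ctsl and Ctsc went both ways. The share of all genes that keep their sign in 3 of 3 pairs was not counted, so the pairs are a description only. With the replicate number as a block at day 2 none of the 8 passed, with adjusted p = 0.253 for Ctsk and 0.245 for Ctsh.

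A few of the genes that restrain, process, deliver or regulate cathepsins passed as well. Of 13 inhibitors and processing enzymes, 2 rose at day 60, Lgmn (0.55, adjusted p = 0.00679) and Cstb, the cytosolic inhibitor cystatin B (0.56, adjusted p = 0.0228). At day 2, 3 rose and 1 fell: Cstb (0.71, adjusted p = 0.00321), Lgmn (0.33, 0.049) and the protease inhibitor gene Spink5 (0.81, 0.00774) rose, and Cst3, the secreted inhibitor cystatin C, fell (-0.24, 0.00424). Of 17 genes of lysosomal targeting, 2 rose at day 60, Psap, the saposin precursor (0.49, adjusted p = 0.00282), and Gnptab, which makes the mannose 6-phosphate tag (0.40, 0.012). At day 2 Gnptab alone rose (0.43, adjusted p = 0.00368). Of 10 regulators, Tfec, a relative of TFEB found in macrophages, rose on both days (0.74, adjusted p = 0.000885, and 0.88, adjusted p = 0.000219), and Spi1, which encodes PU.1, rose at day 60 (0.71, adjusted p = 0.00205). Of 16 other measured genes of the cathepsin and related families, Ctsa alone rose at day 60 (0.33, adjusted p = 0.0399). Ctsf (-0.37), Ctsw (-0.44) and Tinag (-0.53) fell at day 2.

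Some other lysosomal genes also rose. Of 33 other lysosomal hydrolases, 8 rose and none fell at day 60, among them Acp5 (1.10), the tartrate-resistant phosphatase, Lipa (0.63), the acid lipase, Dpp7 (0.61) and Gusb (0.56). At day 2, 2 rose, Gla (0.83) and the sterol carrier gene Npc2 (0.32), and 3 fell, among them Ppt1 (-0.29) and Plbd1 (-0.35). The list's median response was 0.21 at day 60 and -0.0070 at day 2. Of 16 proton pump subunits, 4 rose at day 60, among them Atp6v0d2 (0.99) and Tcirg1 (0.62), and 3 at day 2, among them Atp6v0d2 (0.46). Of 15 genes known from osteoclasts, which use cathepsin K, 6 rose at day 60, among them Acp5, Tcirg1, Atp6v0d2 and Mmp9 (1.04), and 1 at day 2. Matrix genes whose proteins are cut by cathepsins had 3 higher and 1 lower of 9 at day 60 and 5 higher and 1 lower at day 2, with Col3a1 at 0.41 and 0.65, Fn1 at 0.54 and 0.49 and Dcn at -0.29 and -0.28 on those days.

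Some macrophage markers rose on both days, as did some of the cathepsins. Of 15, 10 rose and none fell at day 60, and 7 rose and none fell at day 2, with medians of 0.75 and 0.44. Cd68 rose by 1.04 and 0.63 on those days. C1qb rose by 0.98 at day 60 and Msr1 by 1.70 at day 2. The mean level of the list was 10.45 to 10.71 in BLT1-/-KRasLA1 CS lungs, against 9.87 in their pool, and 10.43 to 10.86 in BLT1+/+KRasLA1 CS lungs, against 10.02 in theirs. At day 2 it was 10.31 to 10.36 in BLT1-/- CS lungs, against 9.94 in their pool, and 10.41 to 10.62 in BLT1+/+ CS lungs, against 9.96 in theirs. The part of the macrophage markers in the cathepsin results was not tested. Neutrophil markers had 4 of 12 higher at day 60 and 2 of 12 at day 2, and alveolar macrophage markers 4 of 12 higher at day 60 and 2 higher and 2 lower at day 2.

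**Figure D4:**
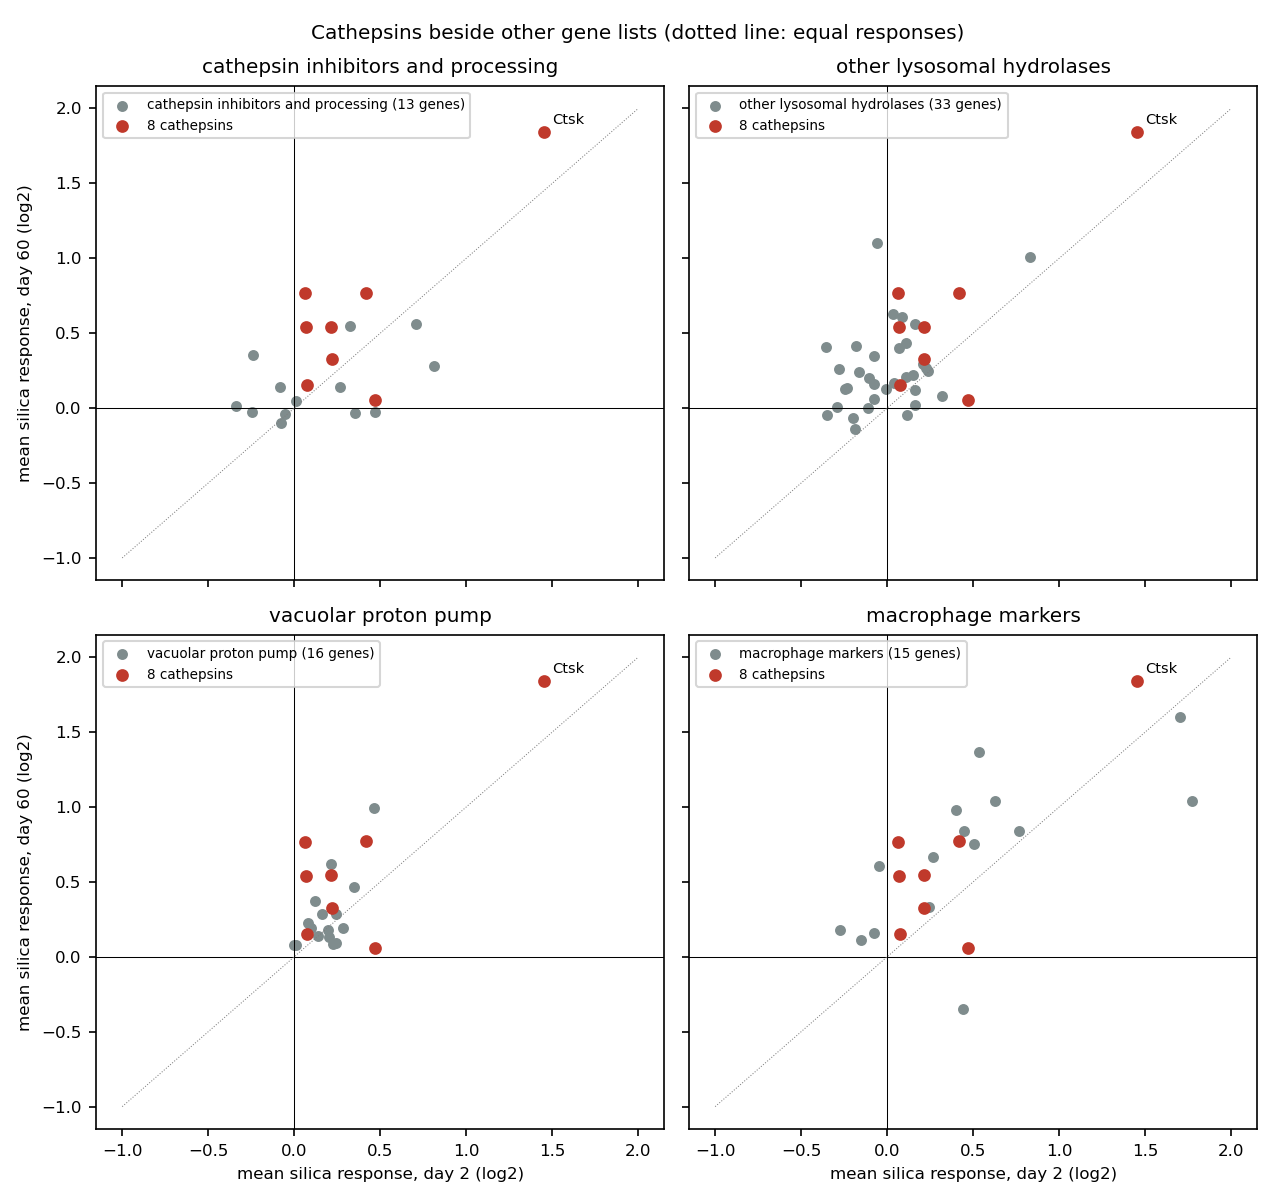
Mean silica response at day 2 (x axis, log2) and at day 60 (y axis, log2) of the 8 cathepsins (red) and, in grey, of 13 cathepsin inhibitors and processing enzymes, 33 other lysosomal hydrolases, 16 proton pump subunits and 15 macrophage markers; the dotted line marks equal responses. Ctsk lies at 1.45 and 1.84, beyond every grey point on the y axis, and Msr1 and Cd14 among the macrophage markers lie further right at 1.70 and 1.77.

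Most of the cathepsins followed one another over the arrays. Across 16 arrays in 8 groups, which share treatments and days, Ctsk, Ctss, Ctsb, Ctsd, Ctsz and Ctsc had Pearson correlations of 0.81 to 0.98 with each other, while Ctsh had 0.23 to 0.63 with the other 7; the set of 6 was picked after these values were seen. The closest pair was Ctss and Ctsd (0.98), followed by Ctsb and Ctsz (0.96). Predicted genes and small RNA genes were left out of the ranking by correlation. Among the other genes, those with the highest correlation to Ctsk were Mmp12, the macrophage elastase (0.98), Tfec (0.96), Gpnmb (0.96), Lgals3 (0.96) and Lrp12 (0.95). Those of Ctss were Ctsd, Pld3 (0.98), Stra6l (0.97), Itgb2 (0.97) and Trem2 (0.97), and those of Ctsd were Trem2, a macrophage lipid receptor (0.98), Ctss, Stra6l (0.98), Lipa (0.98) and Itgb2 (0.97). Ctsz was closest to Cd68 (0.98), Mreg (0.98), Fam20c (0.98), Csf2rb2 (0.97) and Capg (0.97), and Ctsb to Hk3 (0.96), Sgpl1 (0.96), C1qb (0.96), Lhfpl2 (0.96) and Ctsz. For Ctsc the closest was Sftpd, which encodes the collectin surfactant protein D (0.96), ahead of Slc39a2 (0.94), Nfkbie (0.94), Gpnmb (0.94) and Mocos (0.94). Ctsl was closest to Sgk1 (0.89), the proton pump subunits Atp6v1a (0.88) and Atp6v0e (0.87), Plin2 (0.86) and Nceh1 (0.85). Ctsh was closest to Rab5if (0.95), Serp1 (0.93), Cnih4 (0.91), Mcfd2 (0.91) and Nubp1 (0.91), of which Serp1, Cnih4 and Mcfd2 encode proteins of the early secretory pathway. These correlations are descriptions over arrays that differ in treatment and day, and no p-value was computed for them.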

How the data were processed

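The deposited values are log2 expression levels per probe set, which the authors obtained by RMA normalisation. The submitters' processing notes name Partek 6.6 for this. The annotation named 21789 of 35556 probe sets with 1 gene symbol, and the 1621 with several and 12146 with none were left out. A gene with more than 1 probe set was read by the one of highest mean over the arrays. Since RMA equalises the arrays' distributions, these values cannot show a lung-wide change in RNA content. The number of arrays limits the precision.

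A model of 8 group means was fitted across the 16 arrays in limma 3.58.1 under R 4.3.3 (lmFit and eBayes, trend on), and 12 contrasts were tested two-sided with Benjamini-Hochberg adjustment over 19938 genes and a threshold of 0.05. An adjusted p is from this fit unless its sentence names another setting or an array left out, and errors are standard errors unless called SD. The fit assumes that a PBS pool varies like a CS lung. The scripts were tested on simulated data. The cathepsins, the 20 gene lists and the tests were chosen with earlier results of these data known. All 8 cathepsins are named, with the 5 genes most correlated with each, predicted and small RNA genes left out. Up to 4 genes with the smallest p from each list in each mean response are named too. Other genes were named after their values were seen.

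Same-numbered CS lungs of both BLT1 genotypes deviated together at day 2 (correlations 0.43, 0.20 and 0.34) but not at day 60 (0.091, 0.0097 and 0.055), so the numbers were taken to pair the lungs at day 2 only. This rests on the data, not on the labels. Alternatives covered normalisation, dim genes, probe sets, variance model, arrays fitted, replicate block, PBS pools and each CS lung left out.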

Additional observations from a re-analysis of the deposited data

Results flagged for a closer look

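The silica lungs of Ctsh lay on opposite sides of their pools in the BLT1 genotypes at day 60, though neither response passed. All 3 BLT1-/-KRasLA1 CS lungs lay below their PBS pool, at 12.74 to 12.77 against 12.93, and all 3 BLT1+/+KRasLA1 CS lungs lay above theirs, at 12.74 to 13.02 against 12.59. The response was -0.18 in BLT1-/-KRasLA1 lungs (interval -0.62 to 0.27, adjusted p = 0.9) and 0.29 in BLT1+/+KRasLA1 lungs (-0.15 to 0.74, adjusted p = 0.769). The interaction of BLT1 and silica was -0.474 (95% interval -1.10 to 0.16) and was not called in limma (adjusted p = 1). It was -0.47 without BLT1+/+KRasLA1 CS replicate 2. Each direction rests on 1 pool, its only control, and both pools stand apart in Eif2s3y, whose part in the result was not tested.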

How the results depend on the processing

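No cathepsin result reversed a called direction in any alternative. Ctsk kept its mean response past the threshold in all 17 alternatives at day 60 (1.62 to 2.07) and all 18 at day 2 (1.34 to 1.56). The ends of these ranges come from the additive fits with 1 pool left out, which give the response of a single genotype. In the additive fit, added with both pools after seeing the data, 6 cathepsins were called in the mean response at day 60 (6 in the fit reported), 2 without the BLT1-/-KRasLA1 PBS pool and 1 without the BLT1+/+KRasLA1 pool. At day 2 it called 4 with both pools (3 in the fit reported), Ctsb being gained (adjusted p = 0.0352), and 1 without either of them. Leaving out each CS lung gave 6 to 6 at day 60 and 3 to 4 at day 2. In BLT1-/-KRasLA1 lungs the count of 2 became 1 with median centring, without a variance trend or with the arrays of the day only, 3 with quantile normalisation (Ctsb, adjusted p = 0.0466), dim genes left out (Ctsb, 0.0477) or the replicate block, 4 with array weights, and 1 to 5 with single lungs left out. In BLT1+/+KRasLA1 lungs the count of 4 became 3 with median centring or without a variance trend, 6 with array weights (Ctss, adjusted p = 0.00385, and Ctsb, 0.00456, gained), 2 with the arrays of the day only and 2 to 6 with single lungs left out. In BLT1-/- lungs at day 2 the count of 1 became 2 with array weights, 2 with the replicate block and 2 with the block at day 2 only, which was added after seeing the data, and 1 to 2 with single lungs left out. In BLT1+/+ lungs at day 2 Ctsk remained the call. For the day difference the count of 0 became 1 with quantile normalisation (Ctsd, adjusted p = 0.036), 2 with array weights, 1 with the replicate block (Ctsd, adjusted p = 0.0156) and 0 to 4 with single lungs left out. The block at both days also called Ctsd in BLT1-/-KRasLA1 lungs (adjusted p = 0.0319) and Ctsh at day 2 (adjusted p = 0.00198). The block at day 2 alone changed no call but those of Ctsh. The pool difference of Ctsk was lost without a variance trend (1 became 0; 0 to 1 with single lungs left out) and without any 1 pool (0 each, added after seeing the data). BLT1 differences and interactions stayed at 0 throughout. Over all genes, calls ran from 58 to 1729 at day 60 (802 in the fit reported) and from 96 to 3299 at day 2 (2473). They ran from 69 to 876 in BLT1-/-KRasLA1 (234), 43 to 676 in BLT1+/+KRasLA1 (152), 425 to 2647 in BLT1-/- (1315) and 65 to 749 in BLT1+/+ lungs (232). For the BLT1 difference they ran from 1 to 14 at day 60 (8) and 1 to 21 at day 2 (4), for the day difference from 312 to 911 (469) and for the pools from 1 to 335 (79). The cause of these changes was not tested.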

Other observations

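Heart muscle markers, which a dissected lung can carry along, had medians of -0.61 at day 60, with none of 8 called, and -0.89 at day 2, with 5 of 8 lower in CS lungs. T cell markers had 5 of 9 higher at day 60 and 6 of 9 lower at day 2. Fibroblast markers had 3 of 11 higher and 1 lower at day 60, and 3 higher and 3 lower at day 2. Monocyte markers had 2 of 8 higher at day 60, and 1 higher and 2 lower at day 2. Their part in the cathepsin results was not tested.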
